A study of Mus musculus with 4 samples.

Results

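The expression of 10 genes of the integrated stress response was followed, Atf4, Atf3, Atf5, Ddit3, Trib3, Chac1, Asns, Sesn2, Ppp1r15a and Psat1, out of 32285 gene rows in the count matrices. Their rows were taken by symbol and not by a measured value, but the members were chosen with earlier results of these data known. Nuclei were sorted from cortical tissue of GCLC-KO mice, in which a floxed Gclc, the catalytic subunit of glutamate-cysteine ligase, is deleted by CaMKII-Cre. This Cre is active mainly in excitatory neurons of the forebrain, so inhibitory neurons and glia should largely keep the gene. The libraries 3M-1 and 3M-2 come from mice aged 3 months, and those named 6M-1 and 6M-2 from mice aged 6 months, 1 mouse each, from regions rich in rod-shaped microglia, and no treatment was given. Values of all 4 are always given in this order. All 4 mice carried the deletion and no wild-type library was analysed here, so an effect of the deletion itself cannot be told apart from what any cortex shows at these ages and in these cell types.

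This response is the programme by which cells slow protein synthesis and switch on a small set of repair and amino acid genes. Stress kinases phosphorylate the initiation factor eIF2alpha, most translation falls, and the transcription factor ATF4 is translated in spite of it through upstream reading frames in its mRNA. ATF4 then acts on target genes for amino acid supply, antioxidant defence, feedback and, when stress lasts, cell death. Because ATF4 is set mainly at translation, its RNA level does not read its activity, and the targets are the usual RNA readout. One target, Chac1, encodes an enzyme that breaks down glutathione, the antioxidant whose synthesis starts with GCLC.

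Of 30784 deposited nuclei, 30515 passed the filter, with 59262228 to 65894316 UMIs (unique molecular identifiers, which mark single RNA molecules) per library. Nuclei were assigned to cell types by fixed marker genes, which gave 14849 excitatory, 3060 inhibitory, 3654 oligodendrocyte, 549 oligodendrocyte precursor (OPC), 209 astrocyte and 1773 microglial nuclei. The summed level of the marker genes not used in the assignment was highest in its own class for all 6 lists, although 1 of these genes, Nxph1 of the inhibitory list, was higher in OPC. Between 12 and 19 barcodes were shared by any pair of libraries. Xist was at 1726 to 1909 CPM in every library, while Uty and Ddx3y had 26 and 14 UMIs in all. The targeted gene, Gclc (chr9:77754535-77794485, plus strand), was at 42.2, 33.7, 34.2 and 35.8 CPM in excitatory and 47.2, 40.7, 39.6 and 42.8 CPM in inhibitory nuclei, a difference that did not pass the test (log2 fold change -0.05 ± 0.06, adjusted p = 0.514, edgeR's quasi-likelihood test). The values count the 3′ end, and whether the deleted part lies in it is not known, so they do not measure the deletion. The library 3M-2 was the shallowest, with a median of 5994 UMIs per nucleus against 7035 to 8140 in the others, and 3M-1 had the lowest level of Atf4, Atf3, Atf5, Ddit3, Chac1, Asns, Sesn2 and Ppp1r15a over all nuclei. The results below that rest on either library are given without it.

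Levels are in CPM, the UMIs of a gene per 1000000 UMIs of the nuclei summed, and positions are on GRCm38 (GENCODE M21). Over all nuclei the members held from 208 UMIs (Trib3) to 4851 UMIs (Asns). The symbol Ddit3 belongs to 2 overlapping rows (chr10:127290774-127296288 and chr10:127290829-127293753, both on the plus strand). The shorter one had 0 UMIs in every library, and reads that fall in both may not have been counted, so the Ddit3 level is uncertain. The Sesn2 locus also overlaps a predicted gene, Gm12981, on its own strand, and how reads in the overlap were assigned is not known.

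The promoters of the members are shown because ATF4 and C/EBP partners bind a composite element, named CARE, with the letters TGATGNAA. In RefSeq promoters of GRCm38.p6 (250 bases before to 50 after the start site) this motif occurred on either strand in 3.97% of 32851 promoters, and 4 of the 10 members had it. The cyclic AMP element TGACGTCA was found in 1.79% of the promoters and in 1 member, Ppp1r15a. The stretches are given 5′ to 3′ on the strand of the gene, with the motif in capitals (CARE in the first 3, the cyclic AMP element in Ppp1r15a), for chr6:7693210-7693272 (minus), chr1:191183396-191183483 (minus), chr2:119351009-119351096 (plus) and chr7:45526269-45526320 (minus).
Asns: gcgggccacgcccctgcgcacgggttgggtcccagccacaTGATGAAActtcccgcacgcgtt
Atf3: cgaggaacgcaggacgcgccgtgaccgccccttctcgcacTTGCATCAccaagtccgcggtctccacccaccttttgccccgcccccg
Chac1: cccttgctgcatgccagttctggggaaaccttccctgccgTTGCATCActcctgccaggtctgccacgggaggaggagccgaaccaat
Ppp1r15a: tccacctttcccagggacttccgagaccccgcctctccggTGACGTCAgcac
In Asns the match lay on the strand of the gene, and in Atf3 and Chac1 on the other strand. Trib3 had its match on the other strand too (TTACATCA on the gene's strand, chr2:152344039-152344046), 14 bases after the start site. These are matches of letters only, and no binding was measured. The start sites are those of RefSeq and are not always the ends of the GENCODE loci given for the genes below. The Trib3 match lies outside its GENCODE locus, and the Atf3 stretch lies within its own.

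The first comparison set excitatory neurons, the main site of Cre activity, against inhibitory neurons of the same 4 mice. Most of the stress members were lower in excitatory than in inhibitory nuclei. In edgeR's quasi-likelihood test with the mouse as a block, 7 of 10 members were called lower in excitatory nuclei and 0 were called higher (Benjamini-Hochberg adjusted p, threshold 0.05). Of the 18294 genes tested, 28% were called lower and 27.1% higher, 55.1% in all. The median log2 fold change of the members was -1.15, beside -0.03 over all genes. In 9 members the excitatory level was the lower one in 4 of 4 mice, which 46.5% of all genes showed. In 6 members all 4 excitatory levels lay below all 4 inhibitory levels, as in 26.7% of all genes.

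Among the transcription factors, Atf5 (chr7:44812256-44816658, minus strand), which acts in the mitochondrial stress response, differed most. Its level was 1.89, 2.40, 2.73 and 2.99 CPM in excitatory nuclei and 10.3, 11.8, 9.02 and 10.6 CPM in inhibitory nuclei. The groups did not overlap, and the log2 fold change of excitatory against inhibitory nuclei was -1.88 ± 0.16 (SE; adjusted p = 1.25e-06, edgeR). Ddit3, which encodes the death-promoting factor CHOP, was at 2.72, 5.50, 4.80 and 5.12 CPM in excitatory and at 10.4, 19.1, 11.5 and 14.3 CPM in inhibitory nuclei. Every inhibitory level was again the higher one, with a log2 fold change of -1.43 ± 0.13 (SE; adjusted p = 3.10e-06, edgeR).

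Atf4 (chr15:80255184-80257541, plus strand), the central factor, showed the smallest called difference. It was at 9.41, 15.6, 12.4 and 13.3 CPM in excitatory nuclei and at 12.3, 23.7, 19.3 and 18.1 CPM in inhibitory nuclei. The 2 ranges overlapped, but within each mouse the excitatory level was lower (log2 fold change -0.35 ± 0.08, adjusted p = 0.00309, edgeR). Without the mouse as a block this call was lost (adjusted p = 0.166). Atf3 (chr1:191170296-191218039, minus strand), an early stress factor, was at 0.388, 1.06, 1.57 and 1.21 CPM in excitatory and 0.473, 1.47, 2.58 and 1.60 CPM in inhibitory nuclei, and did not pass the test (log2 fold change -0.35 ± 0.26, adjusted p = 0.265, edgeR).

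The amino acid genes had lower levels in excitatory nuclei. Asns (chr6:7675169-7693254, minus strand), asparagine synthetase, was at 11.9, 17.8, 22.6 and 17.6 CPM in excitatory nuclei and 22.7, 45.3, 35.9 and 35.9 CPM in inhibitory nuclei. All inhibitory levels were the higher ones, though the lowest (3M-1) lay close to the highest excitatory level (6M-1), and the log2 fold change was -0.81 ± 0.10 (SE; adjusted p = 3.15e-05, edgeR). Psat1 (chr19:15904678-15947337, minus strand), an aminotransferase of serine synthesis, was at 2.35, 2.77, 5.13 and 4.13 CPM in excitatory nuclei and 6.00, 10.5, 9.28 and 10.4 CPM in inhibitory nuclei. The levels did not overlap (log2 fold change -1.16 ± 0.17, adjusted p = 1.47e-04, edgeR).

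Of the feedback and protective members, Sesn2 (chr4:132492032-132510501, minus strand), which restrains mTORC1 and supports antioxidant defence, was at 1.60, 2.20, 2.40 and 2.73 CPM in excitatory nuclei and 6.15, 4.97, 8.25 and 8.99 CPM in inhibitory nuclei. Its levels were separated in every mouse (log2 fold change -1.49 ± 0.16, adjusted p = 1.38e-05, edgeR). Chac1 (chr2:119351229-119354381, plus strand) was at 0.616, 0.792, 1.14 and 0.845 CPM in excitatory nuclei and 2.21, 2.76, 2.71 and 1.93 CPM in inhibitory nuclei. It too was lower in excitatory nuclei of every mouse (log2 fold change -1.31 ± 0.25, adjusted p = 8.71e-04, edgeR).

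Trib3 (chr2:152337422-152344032, minus strand), a pseudokinase that feeds back on ATF4, narrowly missed the threshold. It was at 0.251, 0.440, 1.12 and 1.13 CPM in excitatory nuclei and 2.52, 1.29, 2.06 and 1.12 CPM in inhibitory nuclei. In 6M-2 the 2 classes were level, while in the other 3 mice the inhibitory value was higher (log2 fold change -1.13 ± 0.45, adjusted p = 0.0503, edgeR). Ppp1r15a (chr7:45522916-45526268, minus strand), which encodes the phosphatase subunit GADD34 that reverses eIF2alpha phosphorylation, was at 1.26, 2.33, 2.30 and 2.27 CPM in excitatory and 1.74, 2.58, 5.15 and 3.69 CPM in inhibitory nuclei. It was the lower in excitatory nuclei of each mouse and had a log2 fold change of -0.52 ± 0.21 (SE; adjusted p = 0.0589, edgeR). Trib3 was called without 6M-2 (adjusted p = 0.0162) and Ppp1r15a without 3M-2 (adjusted p = 0.0371). Without 3M-1 or without 3M-2, Trib3 did not reach an unadjusted p under 0.05 (edgeR). Ppp1r15a did not reach it without 6M-1 or without 6M-2.

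**Figure D1:**
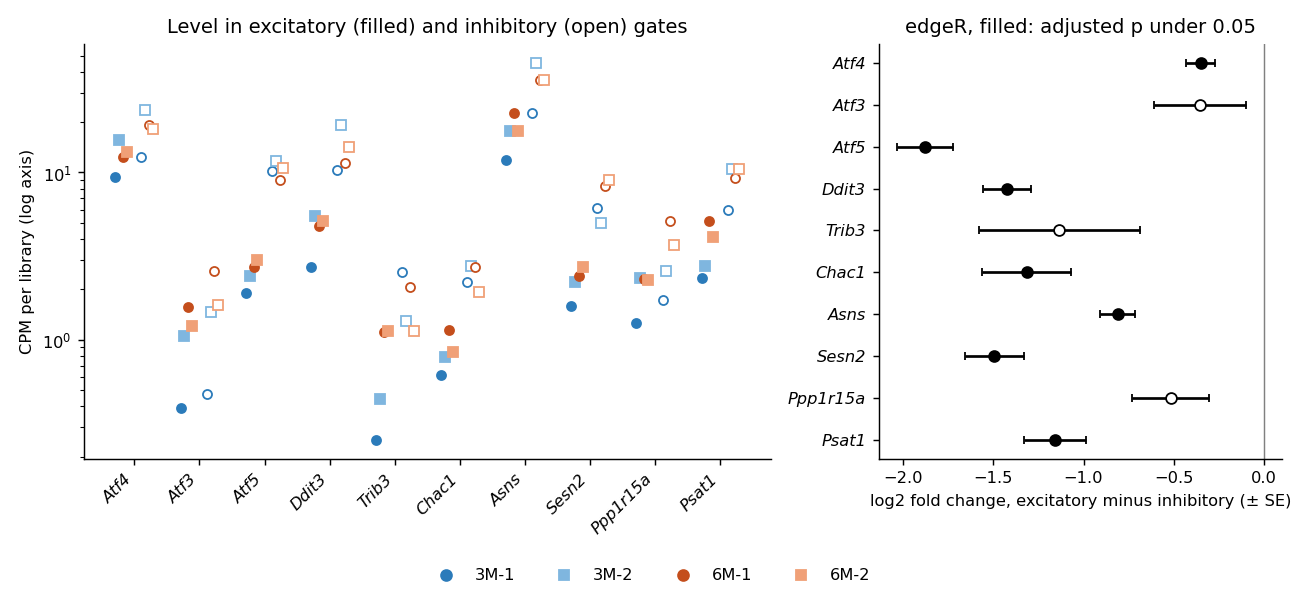
Left, CPM of each member (log axis) in excitatory (filled) and inhibitory (open) nuclei of the 4 libraries, circles for replicate 1 and squares for replicate 2. Right, log2 fold change of excitatory against inhibitory nuclei with its SE, filled where the adjusted p (edgeR) was under 0.05, from -1.88 for Atf5 to -0.35 for Atf4 among the 7 filled members.

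Excitatory nuclei held more UMIs, with medians of 8355 to 12042 UMIs per nucleus against 5889 to 8465 UMIs in inhibitory nuclei, so the members were also counted per nucleus. Per 1000 nuclei, Atf5 had 29.7 ± 6.99 UMIs in excitatory and 87.3 ± 8.74 UMIs in inhibitory nuclei (mean ± SD, n = 4 mice). On this scale Atf5, Ddit3, Chac1, Asns, Sesn2 and Psat1 were still lower in excitatory nuclei of 4 of 4 mice, by 1.41-fold (Asns) to 2.94-fold (Atf5). Atf4 was not, with 148 ± 18.3 against 152 ± 28.4 UMIs per 1000 nuclei and a lower excitatory value in 2 of 4 mice. How many of all genes were lower per excitatory nucleus in 4 of 4 mice was not counted. The part of depth in the CPM difference was not tested.

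Within inhibitory nuclei, the Pvalb, Sst, Vip and Lamp5 gates held 1269, 190, 415 and 379 nuclei. Asns averaged 42.1 ± 11.7 CPM in the Pvalb gate, beside 26.0 ± 12.3 CPM in Vip, 22.6 ± 14.8 CPM in Sst and 22.6 ± 8.07 CPM in Lamp5 nuclei (mean ± SD, n = 4). Neighbours in this order overlapped. Ddit3 was in the order Pvalb (16.8 CPM), Sst (12.9 CPM), Vip (12.6 CPM) and Lamp5 (7.36 CPM), and neighbouring gates overlapped here too.

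The wider pathway was described with 8 gene lists. Their counts stand beside 28% of all genes called lower and 27.1% called higher, and their medians beside -0.03 over all genes. The lists were not recounted per nucleus, and the part of depth in their differences was not tested. Of 12 tRNA synthetases, 11 were called lower in excitatory nuclei and none higher, with a median log2 fold change of -0.72. Among them, Gars averaged 43.5 ± 3.34 CPM in excitatory and 89.7 ± 5.99 CPM in inhibitory nuclei (mean ± SD, n = 4; adjusted p = 4.43e-08, edgeR). Of 10 amino acid transporters, 9 were called lower and 1, the lysosomal carrier Slc36a1, higher (log2 fold change 0.72 ± 0.08). Slc3a2, the heavy chain shared by several amino acid exchangers, was at 60.5 ± 4.67 against 102.7 ± 5.17 CPM (log2 fold change -0.59 ± 0.06). Of 11 genes of serine, one-carbon and amino acid synthesis, 8 were called lower and none higher, with a median of -0.61. The mitochondrial folate enzyme Aldh1l2 led them, at 8.43 ± 2.51 CPM in excitatory and 55.8 ± 4.43 CPM in inhibitory nuclei (log2 fold change -2.57 ± 0.11, adjusted p = 4.19e-09, edgeR).

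Of 8 genes on the kinase and phosphatase side, 4 were called lower and 1 higher. Eif2ak4, the amino acid-sensing kinase GCN2, was at 50.6 ± 5.37 CPM in excitatory and 99.96 ± 5.02 CPM in inhibitory nuclei (log2 fold change -0.81 ± 0.05). Of 10 eIF2 and eIF2B genes, 3 were called lower and 1 higher, with a median of 0.01, and the share called lower was near that of all genes. Of 7 mitochondrial stress genes 6 were called lower and none higher, with a median of -0.36. Among 18 genes of the chaperone branch of the unfolded protein response, 6 were called lower and 3 higher, again near the shares of all genes, with a median of -0.04. Herpud1, a component of endoplasmic reticulum degradation, was lower (log2 fold change -0.66 ± 0.08), whereas the sensors Ern1 (0.75 ± 0.07) and Atf6 (0.73 ± 0.07) were higher in excitatory nuclei. Of the 14 other stress and cell fate targets 11 passed the filter, with 5 called lower and 1 higher. Their median was -0.04, near that of all genes. The pro-apoptotic gene Bcl2l11 was at 2.36 ± 0.16 against 17.0 ± 5.63 CPM (log2 fold change -2.65 ± 0.16), while Jdp2 was higher in excitatory nuclei (0.97 ± 0.08).

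The next question was whether the response changed between 3 and 6 months. No member was called in the 8 cell classes in which any could be tested. No member passed the filter in the ninth, astrocytes, and 2 each did in layer 4 and OPC. Of 47 pairs of a member and a class that passed the filter, edgeR's quasi-likelihood test (2 mice against 2) called 0, beside 0.0665% of all gene and class pairs. The unadjusted p was under 0.05 in 5 pairs, Asns, Atf3, Chac1 and Trib3 in layer 2/3 (5.77% of genes there) and Ppp1r15a in inhibitory nuclei (4.91%), against 6.23% over the 9 classes. Atf3, Chac1 and Trib3 passed the filter in layer 2/3 only through their 6-month levels, so their p-values there are no support. DESeq2 also called 0 pairs, with 2 at an unadjusted p under 0.05. Few genes of any kind were called by age, 0.529% in microglia, 0.1% in oligodendrocytes, 0.0124% in OPC, 0.00633% in layer 2/3 and 0% in the other 5 classes. Further classes were added after the data were seen, and none had a member called, with 0.00508% of genes called in all excitatory nuclei pooled, 0.0183% in the Tshz2 gate and 0% in 3 more.

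The values in excitatory nuclei lay higher at 6 months for most members, although none passed the test. In the pooled excitatory nuclei the log2 fold change of 6 against 3 months was above 0 for 10 of 10 members, with a median of 0.41 beside 0.00 over all genes. The direction was not firm for 3 of them. Atf4 fell below 0 with DESeq2, with RLE normalization, without the filter, with all deposited nuclei and without 3M-1 or 6M-2 (-0.27 and -0.09), and Ddit3 (-0.14) and Ppp1r15a (-0.0145) did so without 3M-1. Trib3 and Psat1 had an unadjusted p under 0.05 (7.21% of genes did), also with DESeq2. Both 6-month levels lay above both 3-month levels in 6 members (Atf3, Atf5, Trib3, Chac1, Sesn2 and Psat1), which 22.3% of all genes showed, and in no member did both lie below. Trib3 was at 0.251 and 0.440 CPM at 3 months and at 1.12 and 1.13 CPM at 6 months, on 11, 20, 47 and 47 UMIs. The 2 ages did not overlap, with a log2 fold change of 1.66 ± 0.40 and an unadjusted p of 0.00292, but the adjusted p was 0.348 (edgeR).

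Psat1 in the same nuclei was at 2.35 and 2.77 CPM at 3 months and 5.13 and 4.13 CPM at 6 months. The ages did not overlap (log2 fold change 0.82 ± 0.25, unadjusted p = 0.0123, adjusted p = 0.4998, edgeR). Asns was at 11.9 and 17.8 CPM at 3 months and 22.6 and 17.6 CPM at 6 months, so that 3M-2 and 6M-2 were level. Atf4 itself had a log2 fold change of 0.01 ± 0.24 (adjusted p = 0.995, edgeR).

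Of the 88 genes of the 8 pathway lists tested in pooled excitatory nuclei, edgeR called 0 by age (0.00508% of all genes). In edgeR 7 had an unadjusted p under 0.05, as did 7.21% of all genes. DESeq2 called 1 of the 88, among 111 genes of any kind. That gene, Slc7a11, was chosen after its values were seen. It encodes the cystine carrier xCT, which supplies cysteine for glutathione. Slc7a11 was at 1.39 and 2.18 CPM at 3 months and 4.20 and 4.83 CPM at 6 months, on 61, 99, 177 and 200 UMIs. Both 6-month levels lay above both 3-month levels, as for 22.3% of all genes. The log2 fold change was 1.31 ± 0.29 (adjusted p = 0.321 in edgeR and 0.0438 in DESeq2). When 1 library was left out it ran from 1.07 (without 3M-1) to 1.59 (without 3M-2). Slc7a11 was not called with the replicate block (adjusted p = 0.0796, edgeR) or with the stricter gate (0.446, edgeR). With the replicate numbers crossed between ages it was called (0.0297, edgeR), among 260 genes of any kind. The median log2 fold change by list ran from -0.16 for the chaperone branch to 0.20 for serine, one-carbon and amino acid synthesis.

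In layer 2/3 nuclei the levels of 7 members were higher in both 6-month libraries than in both 3-month libraries (Atf3, Atf5, Ddit3, Trib3, Chac1, Asns and Psat1), as they were for 18.2% of all genes. Atf3, Chac1 and Trib3 passed the filter on low counts here only through their 6-month levels, so their order is no support. Atf3 was at 0.329 and 0.844 CPM at 3 months and 5.04 and 1.88 CPM at 6 months, on 4, 11, 35 and 12 UMIs. The high value came from 6M-1, and the log2 fold change of 2.51 ± 0.62 had an unadjusted p of 0.00193 and an adjusted p of 0.515 (edgeR). Chac1 was at 0.494 and 0.384 CPM at 3 months and 1.44 and 1.56 CPM at 6 months, on 6, 5, 10 and 10 UMIs. The ages were separate, but the adjusted p was 0.796 (edgeR). Without the filter on low counts, Atf3 passed in this layer (adjusted p = 0.00141, edgeR). That fit called 107 genes of any kind there, against 1 in the main setting.

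Whether members passed depended on 3M-2. Without it, 3M-1 was the only 3-month library and is assumed to vary like the 6-month ones. In that fit 4 members were called higher at 6 months in pooled excitatory nuclei, namely Asns (adjusted p = 0.0320), Atf3 (0.0127), Psat1 (0.0341) and Trib3 (0.00956, edgeR). The same fit called 2098 genes of any kind in these nuclei, and in layer 2/3 it called Asns, Atf3 and Ddit3 among 934 genes. Without 3M-1 no member was called, with 45 and 275 genes called in the 2 classes. Layer 2/3 nuclei made up 13.6% and 15.5% of the nuclei at 3 months and 7.32% and 7.27% at 6 months, and the part of this shift in the pooled values was not tested.

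**Figure D2:**
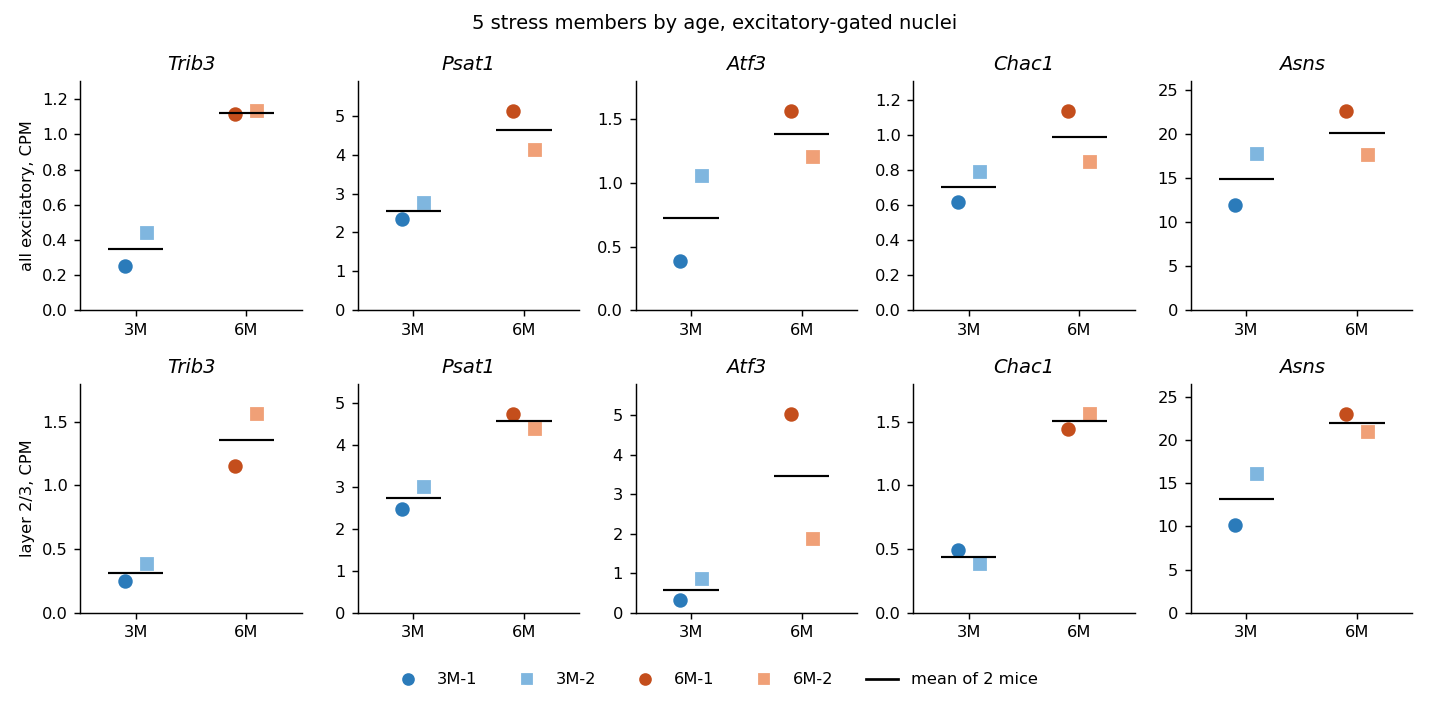
CPM of 5 members in all excitatory nuclei (upper row) and in layer 2/3 nuclei (lower row) by age; points are libraries and lines are means of 2 mice. Trib3, Psat1, Atf3 and Chac1 lie higher in both 6-month libraries in both rows, whereas Asns overlaps between ages in all excitatory nuclei. In layer 2/3 nuclei Atf3, Chac1 and Trib3 passed the filter on low counts only through their 6-month levels.

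In inhibitory nuclei 6 of 10 members had a log2 fold change above 0, with a median of 0.08 beside 0.00 over all genes. Both 6-month levels lay above both 3-month levels in 3 members (Atf3, Sesn2 and Ppp1r15a), as for 18.1% of all genes. In 0 members did both lie below. Atf3 passed the filter on low counts there only through its 6-month levels, so its order is no support. Ppp1r15a was at 1.74 and 2.58 CPM at 3 months and 5.15 and 3.69 CPM at 6 months there (unadjusted p = 0.0314, adjusted p = 0.924, edgeR). Whether the age difference was unlike in excitatory and inhibitory nuclei was tested directly with an interaction term, added after the data were seen. No member passed in edgeR (0.103% of genes did) or DESeq2, with 2 members in edgeR (6.18% of genes) and 0 in DESeq2 at an unadjusted p under 0.05. Trib3 had the smallest p, with a difference of 1.95 ± 0.68 on the log2 scale (unadjusted p = 0.0145, adjusted p = 0.598, edgeR).

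Nuclei with UMIs of 3 or more members were counted after each nucleus was thinned to 5000 UMIs by a random draw, made once. Another draw would give somewhat different counts. No share expected from the levels of the single members was computed, so whether members occurred together was not tested. Among excitatory nuclei there were 3 of 3156 in 3M-1, 5 of 3936 in 3M-2, 17 of 3344 in 6M-1 and 14 of 3138 in 6M-2. As shares these were 0.0951% (95% Wilson interval 0.0323 to 0.279), 0.127% (0.0543 to 0.297), 0.508% (0.318 to 0.813) and 0.446% (0.266 to 0.748), and the intervals cover counting error only. Both 6-month shares were above both 3-month shares, by 0.366 percentage points on average, with an exact permutation p of 0.333, the smallest that 2 mice against 2 allow (two-sided). Nuclei under 5000 UMIs were left out, 170, 822, 153 and 130 in the 4 libraries. Without thinning the shares were 0.752%, 0.799%, 2.49% and 2.36%.

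Inhibitory nuclei had higher shares, 0.528%, 1.67%, 1.95% and 1.92% in the 4 libraries with the same thinning. Both 6-month shares were above both 3-month shares here too, by 0.836 percentage points on average (exact permutation p = 0.333, two-sided). The excitatory share was the lower one in each of the 4 mice. In single layers the counts were too low to order, with 0 to 3 such nuclei per library in the 7 layer gates. No cell class that lacks these genes was at hand to set a background for free RNA, so the shares describe detection and not expression per cell.

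**Figure D3:**
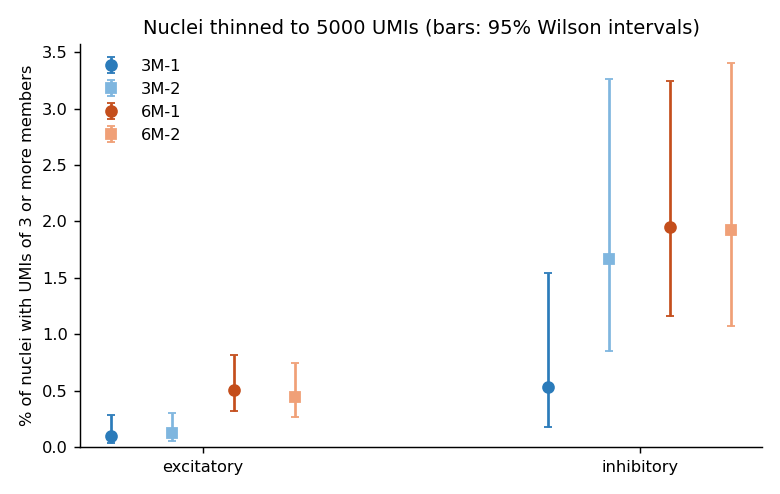
Percent of nuclei with UMIs of 3 or more of the 10 members, after thinning to 5000 UMIs, in excitatory and inhibitory nuclei of the 4 libraries, with 95% Wilson intervals. In excitatory nuclei the 3-month libraries sit at 0.0951% and 0.127% and the 6-month libraries at 0.508% and 0.446%. Inhibitory nuclei show the same order by age, but 3M-2 (1.67%) lies close to 6M-1 (1.95%) and 6M-2 (1.92%).

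The layers of excitatory neurons were then set against each other. The 7 layer gates held from 408 (Gm2115) to 3366 (layer 2/3) nuclei, and 4044 excitatory nuclei had no layer. The gates named Vat1l, Tshz2 and Gm2115 are called by their leading marker, and L6CT is a layer 6 gate marked by Foxp2 and Hs3st4. Of 7 members that passed the filter on low counts (Atf3, Chac1 and Trib3 did not), Asns (adjusted p = 0.00403) and Psat1 (adjusted p = 0.01997) differed among the 7 gates in edgeR's quasi-likelihood F test. Of all genes tested, 59% differed. Without the mouse as a block 0 members were called and 0 had an unadjusted p under 0.05 (edgeR).

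Asns was highest in the Tshz2 gate, at 16.9, 31.4, 36.8 and 27.3 CPM. In each mouse this was the highest of the 7 gates, with mean levels of 15.2 to 18.8 CPM in the other 6, although its range over mice overlapped that of layer 4, the next in order. The Tshz2 gate was above the mean of the others by 0.64 ± 0.14 on the log2 scale (adjusted p = 8.87e-04, edgeR; 24.2% of genes were called in this contrast). The Tshz2 gate held 611 nuclei, with median depths of 6319 to 8530 UMIs, shallower than layer 2/3 with 8485 to 12193 UMIs.

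Psat1 was highest in the Gm2115 gate, at 1.96, 3.77, 8.33 and 9.35 CPM, and lowest in the Vat1l gate, at 1.03, 1.65, 3.07 and 3.13 CPM. Both 6-month libraries were the higher ones in each of these gates, as for 17.6% of all genes in Gm2115 and 17.8% in Vat1l. Psat1 passed the filter of these age tests only through its 6-month levels, so this order is no support. Neither age test of Psat1 passed (adjusted p = 0.676 in Gm2115 and 0.614 in Vat1l, edgeR). Against the mean of the other gates the log2 differences were 0.83 ± 0.25 for Gm2115 (adjusted p = 0.0161, with 20.6% of genes called) and -0.80 ± 0.23 for Vat1l (adjusted p = 0.0113, edgeR, with 23.4% of genes called). Each rests on few UMIs, 2 to 19 per library in the Gm2115 gate and 3 to 14 per library in the Vat1l gate. Neighbouring gates overlapped. Psat1 was not called in the F test without 6M-1 or without 6M-2, and the Gm2115 contrast was lost in both (adjusted p = 0.107 and 0.227, edgeR). The Vat1l contrast was lost without 3M-1 (0.0512) and without 6M-1 (0.119).

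Sesn2 was lowest in the L6CT gate, at 1.30, 1.04, 1.26 and 2.02 CPM, beside means of 2.19 to 3.61 CPM in the other 6 gates. Its contrast against the mean of the others passed (log2 difference -0.87 ± 0.30, adjusted p = 0.0219, edgeR, with 35.1% of genes called), but its F test over all gates did not (adjusted p = 0.235), and the contrast was lost without 3M-2 (0.153) or 6M-1 (0.135). Atf4 (adjusted p = 0.117), Atf5 (0.718), Ddit3 (0.522) and Ppp1r15a (0.333) did not pass the F test either. Without 3M-2, 0 members passed it at the adjusted threshold and 2, Asns and Psat1, had an unadjusted p under 0.05 (63.3% of genes did in the full set). In the contrasts of layer 2/3, layer 4 and layer 5 with the other gates, in which 26.9%, 29% and 16.2% of genes were called, edgeR called 0 members, and 2 (Ddit3 in layer 2/3 and Atf4 in layer 4) had an unadjusted p under 0.05. A change with age that differed among layers was not called for any of the 8 members tested (0.367% of genes were), and the smallest unadjusted p was 0.0545 for Trib3 (adjusted p = 0.563, edgeR). DESeq2 called 0 too, and 0 members had an unadjusted p under 0.05 with either tool (9.16% of genes in edgeR).

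**Figure D4:**
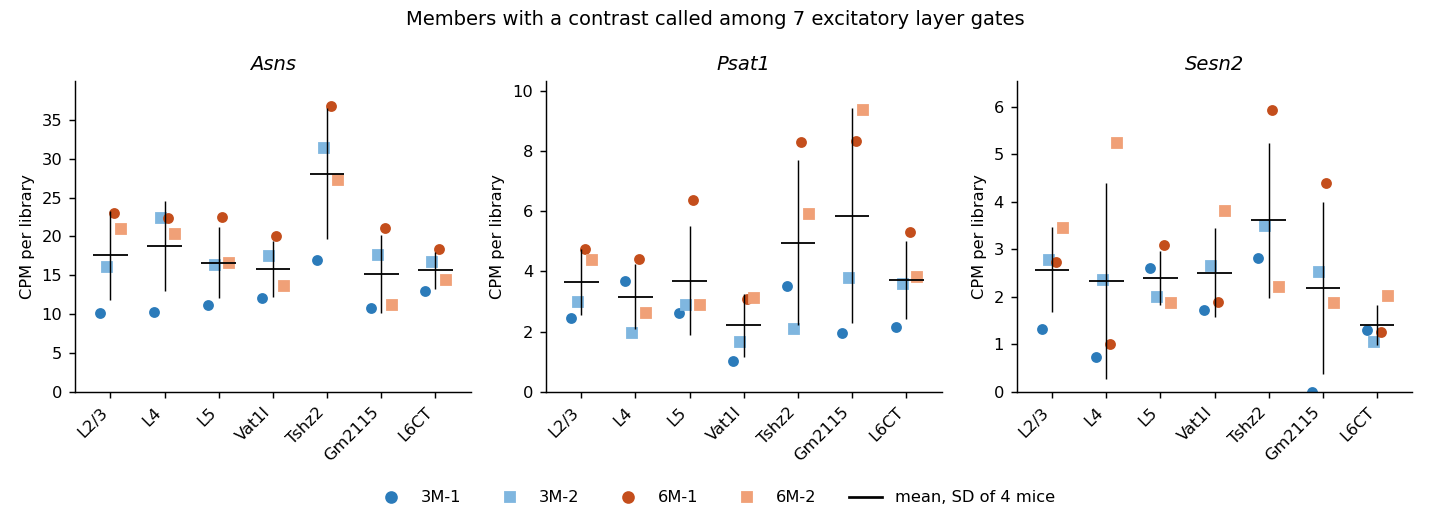
CPM of Asns, Psat1 and Sesn2 in 7 layer gates of excitatory nuclei by library; horizontal lines are means and vertical lines the SD of 4 mice. Asns stands highest in the Tshz2 gate, Psat1 is highest in Gm2115 and lowest in Vat1l, and Sesn2 is lowest in L6CT.

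Across the 6 major cell types the members had distinct patterns. Of the 6 members that passed the filter, Asns, Atf3, Atf4, Atf5, Ddit3 and Psat1, all were called in the F test, as were 93.5% of all genes, so this count says little about them and the levels are described instead. The other 4 were too low in the smaller classes. Astrocyte values come from 209 nuclei and 78 UMIs of all members together.

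Psat1 was far higher in oligodendrocytes than elsewhere, at 101.6, 118.0, 157.6 and 112.2 CPM. OPC (46.8 ± 8.06 CPM, mean ± SD, n = 4) and astrocytes (44.96 ± 12.4 CPM) came next and overlapped, followed by microglia (23.2 ± 4.44 CPM), inhibitory neurons (9.05 ± 2.11 CPM) and excitatory neurons (3.59 ± 1.27 CPM). Apart from OPC and astrocytes, neighbours in this order did not overlap. Oligodendrocytes were above the mean of the other types by 2.98 ± 0.11 on the log2 scale (adjusted p = 1.20e-20, edgeR; 59.7% of genes were called in this contrast). Asns had another order, with inhibitory neurons at 22.7 to 45.3 CPM above all other types, excitatory neurons next, and oligodendrocytes (5.72 to 10.7 CPM) and astrocytes (5.13 to 10.6 CPM) lowest. From excitatory neurons down, neighbours in its order overlapped. Inhibitory neurons were above the mean of the other types by 1.65 ± 0.12 for Asns on the log2 scale (adjusted p = 3.44e-13, edgeR; 60.8% of genes were called). OPC were above it by 1.11 ± 0.21 for Psat1 (adjusted p = 7.33e-05, edgeR; 33.6% called).

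Atf3 was highest in microglia, at 13.3, 15.6, 9.03 and 23.3 CPM there and at most 2.58 CPM in any library of the other types. No UMI of it was found in astrocytes, where 3 UMIs over the group would be 4.23 CPM. Atf3 entered the test of cell types through its microglial level, so its call there is no support. It did not pass the filter on low counts, and so had no test, with the stricter gate or without the 5% of nuclei with most UMIs. Ddit3 was highest in microglia as well, at 14.4, 23.5, 18.1 and 23.3 CPM, although inhibitory neurons overlapped with it (log2 difference of microglia from the mean of the others 1.00 ± 0.23, adjusted p = 2.84e-04, edgeR; 66.1% of genes were called). Atf5 was highest in astrocytes, at 15.4, 20.8, 22.5 and 15.8 CPM on 3 or 4 UMIs per library, above inhibitory neurons (9.02 to 11.8 CPM) without overlap. Among the 6 members that passed the filter, Atf4 had the smallest ratio of highest to lowest mean, from 12.7 ± 2.58 CPM in excitatory neurons to 32.3 ± 9.43 CPM in microglia, with every neighbour in the order overlapping. Excitatory neurons were below the mean of the other types by this measure (log2 difference -0.58 ± 0.13, adjusted p = 2.09e-04, edgeR; 68.5% of genes were called).

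**Figure D5:**
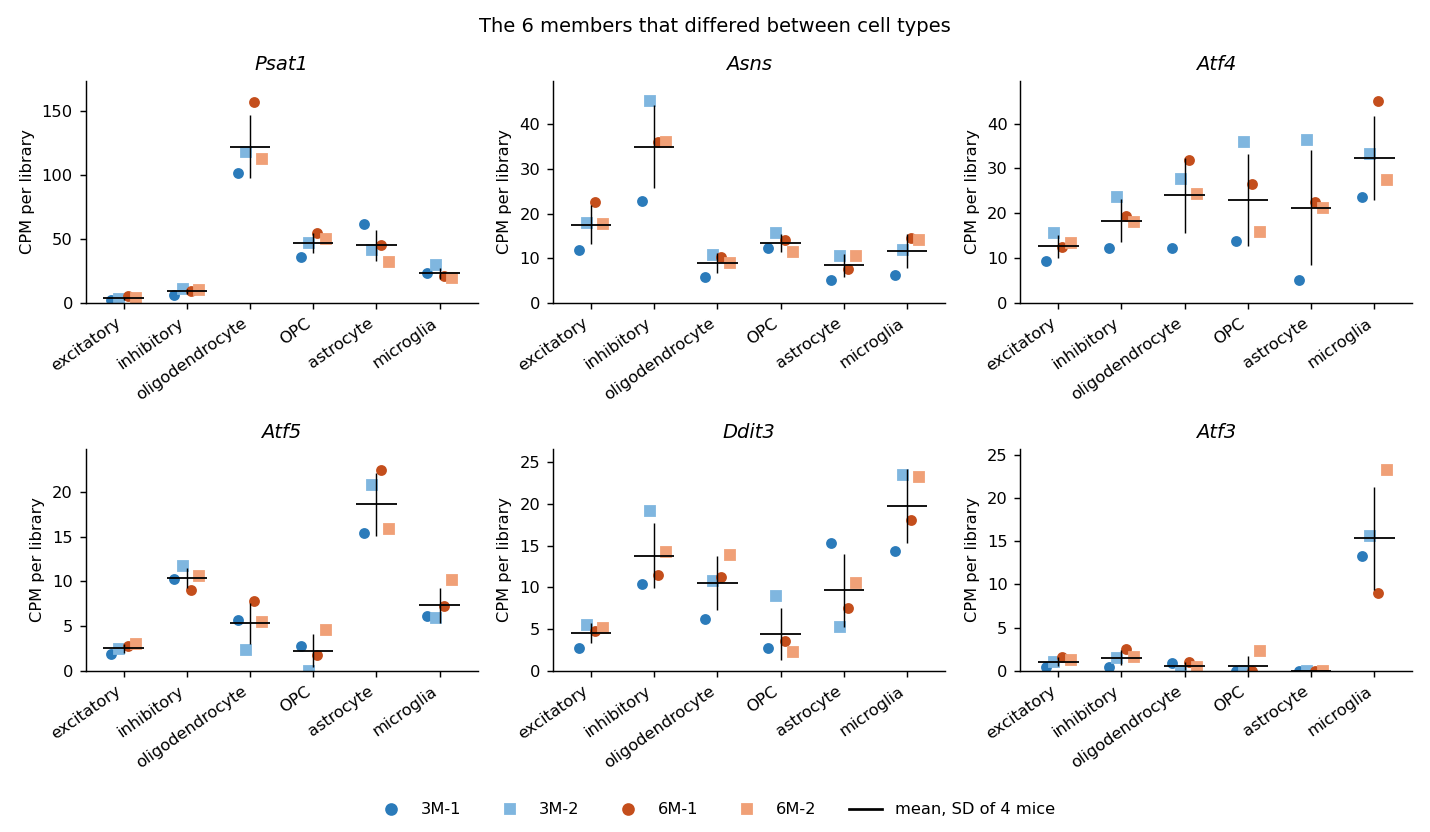
CPM by library in 6 cell types for the members that passed the filter; horizontal lines are means and vertical lines the SD of 4 mice. Psat1 peaks in oligodendrocytes (101.6 to 157.6 CPM), Asns in inhibitory neurons (22.7 to 45.3 CPM) and Atf3 in microglia (9.03 to 23.3 CPM).

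Over the 24 sums of 6 types and 4 libraries, the genes most like the 3 members with the highest mean level were listed as a description. For Psat1 they were Hipk2 (Pearson r of log2(CPM + 1) 0.963), Meis1 (0.957) and Ikzf2 (0.944). For Atf4 they were the ribosomal protein genes Rpl4 (0.931) and Rpl24 (0.911) and the respiratory chain gene Uqcrq (0.904), and for Asns they were Pja2 (0.911), Vstm2a (0.905) and Gm28756 (0.903). The sums share libraries and differ in depth.

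Within microglia, nuclei with 2 or more UMIs of 9 markers of disease-associated microglia (DAM) were compared with nuclei that had none, 304 against 1165 nuclei. Atf3 was at 31.8, 62.3, 22.1 and 66.9 CPM in DAM-gated nuclei and at 4.61, 5.39, 3.35 and 7.65 CPM in the others. The DAM values were the higher ones in every mouse and did not overlap with the others, on 7, 4, 6 and 17 against 3, 2, 2 and 4 UMIs. Atf3 did not pass the filter on low counts and was not tested in the main analysis, in which none of the 10 members passed it and 7.78% of 6540 genes were called (509 genes). Without the filter, Atf3 was the only member called, with a log2 fold change of 2.84 ± 0.52 (adjusted p = 6.34e-06, edgeR; 3.19% of 19457 genes called). Atf3 and Psat1 belong to a list that the study drew from these same mice, so this is not independent evidence.

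The gate takes deeper nuclei, with medians of 2052 to 2934 UMIs in DAM-gated and 1310 to 2129 UMIs in other microglia, and its part was not tested. Psat1, on 3, 3, 8 and 3 UMIs, was at 13.6, 46.7, 29.4 and 11.8 CPM in DAM-gated nuclei and at 21.5, 18.9, 15.1 and 19.1 CPM in other microglia, so the groups overlapped. Ddit3 overlapped too, at 11.04 to 23.6 CPM in DAM-gated and 13.8 to 29.6 CPM in other microglia. Chac1 had no UMI in DAM-gated nuclei, where 3 UMIs over the group would be 3.70 CPM. Of the pathway lists, Eif2ak2, which encodes the double-stranded RNA-sensing kinase PKR, was at 201 ± 107 CPM in DAM-gated and 112 ± 20.7 CPM in other microglia and was called higher (log2 fold change 0.65 ± 0.19, adjusted p = 0.0460), and so was the mitochondrial chaperone Hspa9 (0.74 ± 0.22, adjusted p = 0.0448, edgeR), as were 4.51% of genes. Both calls were lost when any 1 library was left out, with adjusted p of 0.0537 to 0.197 for Eif2ak2 and 0.0725 to 0.266 for Hspa9 (edgeR), and with DESeq2 (0.210 and 0.372).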

How the data were processed

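The authors deposited, per library, a matrix of raw UMI counts made with Cell Ranger 7.0.0 (per the file headers) from 10x Chromium 3′ libraries of sorted nuclei. mm10 is named in the processing notes, and the annotation is not given in the sources used here. Coordinates came from GENCODE M21 (GRCm38). The study's filter was kept (at most 7000 genes and 1% mitochondrial UMIs). A nucleus was assigned to the class whose marker score led the next by 2-fold (layers 1.5-fold). Doublets were limited by this margin, and no caller was run. Pde10a was left out of the striatal markers after the data were seen. Counts were summed per mouse and class and fitted with edgeR 4.0.16 (TMM, filterByExpr, quasi-likelihood test, Benjamini-Hochberg adjustment over all genes tested) in R 4.3.3, with mouse as a block between classes and 2 mice against 2 between ages. DESeq2 1.42.0 was an alternative. The fits were also run on simulated counts, with changes placed only in well-counted genes, so that run does not cover members with few UMIs. The labels give batch 1 or 2 to the replicates of that number at both ages, which is where the pairing comes from. Replicate differences correlated between ages at -0.145 to 0.0579 over classes. The text names the 10 members, Gclc, sex genes, up to 3 called genes per list and direction, and the 3 genes most like each of 3 members. The members and lists were chosen with earlier results of these data known.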

Additional observations from a re-analysis of the deposited data

Results flagged for a closer look

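The levels of Psat1 at 6 months lay on opposite sides of those at 3 months in different cell types, and the difference between these types was not tested. In excitatory nuclei both 6-month levels lay above both 3-month levels, with a mean 1.81-fold that at 3 months. In OPC they did so too (35.7 and 47.2 CPM at 3 months, 54.8 and 49.6 CPM at 6 months, 1.26-fold). In microglia both 6-month levels lay below (23.6 and 29.3 CPM at 3 months, 20.8 and 19.2 CPM at 6 months). Of all genes, 22.3% lay above in this way in excitatory nuclei and 16.5% in OPC, and 18.2% lay below in microglia. No age test of Psat1 in these types passed in edgeR (adjusted p = 0.4998 in excitatory nuclei, 0.947 in OPC and 0.840 in microglia).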

How the results depend on the processing

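With 2 mice per age, low counts and no wild-type library, the power to see modest changes was small. Members called by age over 9 classes were 0 in the main setting, 1 without the filter on low counts and from 0 to 5 when 1 library was left out, the 5 being without 3M-2 (Asns, Atf3 and Ddit3 in layer 2/3, Asns in inhibitory nuclei and Atf4 in oligodendrocytes). Without 3M-2 the fits also called far more genes of any kind in the same classes than the main setting did. With the replicate block 0 members were called by age, and genes of any kind called by age in excitatory nuclei were 82 against 1. With the numbers crossed (added after the data were seen) 0 members and 260 such genes were called, and with DESeq2 111. For the layers, 2 members were called in the main setting, in which 59% of all genes were. There were 4 without the filter, 1 with the stricter gate and 1 without the 5% of nuclei with most UMIs. The count was 0 without the mouse as a block and 0 to 2 when 1 library was left out. Without the mouse as a block 6 members were called between excitatory and inhibitory nuclei, and with the other alternatives 7 or 8. The main setting called 7, beside 55.1% of all genes. Between cell types 5 to 9 members were called, beside 6 in the main setting, in which 93.5% of all genes were called. For DAM-gated microglia, 1 member was called without the filter. For excitatory nuclei with several members, the age difference of 0.366 percentage points was 0.0594 with thinning to 2000 UMIs and 1.65 without thinning. It was 1.39 for 2 or more members and 0.335 to 0.397 when 1 library was left out.

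The results that reversed were age differences that had not passed the test, and the cause was not tested. The log2 fold change of Atf4 in excitatory nuclei, 0.01, was -0.003 with DESeq2, -0.003 with RLE normalization, -0.0122 without the filter and -0.0074 with all deposited nuclei, and ran from -0.27 to 0.34 when 1 library was left out. On the same leave-one-out basis Ddit3 ran from -0.14 to 0.76 and Ppp1r15a from -0.0145 to 0.75 in excitatory nuclei, and Atf4 from -0.11 to 0.53 and Ppp1r15a from -0.14 to 0.76 in layer 2/3.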
